A study of Homo sapiens with 7 samples.

Results

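Myc peaks in the long stretches between protein-coding genes of HT29 cells are described here. A peak was taken as a member when its summit lay outside every protein-coding gene and over 50 kb from any protein-coding gene end, on chromosomes 1 to 7 and 9 to 22. The rule used position alone, and no measured value. It picked 4505 of the 42572 peaks on these chromosomes, from a list of 47017 peaks in all. HT29 is a cell line long established from a colon adenocarcinoma, and binding was measured by CUT&RUN, in which an antibody guides a nuclease to its target and the DNA cut free is sequenced. All cells had been given oleic acid, a fatty acid with a single double bond, for 6 h in serum-free medium. The titles give 3 Myc libraries, 3 IgG controls and 1 input, although the labels give the IgG libraries the same Myc antibody as the Myc libraries. The series concerns colon cancer in obesity and the triacylglycerol enzymes DGAT1 and DGAT2, and as every library had the fatty acid, its effect could not be tested. The deposited list holds 1 value per peak and none per library, so a spread over the 3 Myc libraries is not known for any member.

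Myc is a transcription factor that pairs with MAX and binds the E-box, CACGTG, and related sequences, most of all at the promoters of active genes. When Myc is abundant, as in many colon cancers, it is also found at distal sites, among them enhancers and the promoters of noncoding genes. Long noncoding RNA (lncRNA) genes, pseudogenes copied from coding genes and small RNA genes all lie in the stretches that hold no coding gene, and so do the repeats around centromeres.

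The strength of a peak is given as the authors' fold, the Myc signal over the local control level at the summit. From the fold and the p-value, the number of fragments over the summit (the pileup) and the control level could be recovered for 42572 of 42572 peaks. Intervals in brackets after a fold are exact Poisson 95% intervals of that pileup in which the control level is taken as exact. These are PCR products without molecular identifiers, so every interval here covers counting error only.

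The sequences below are RefSeq promoter windows of the GRCh38.p14 table, 250 bases before and 50 bases after an annotated start, each within 1 kb of a member summit. They are shown because they belong to the strongest members at an annotated start, to the 3 windows that hold both a member summit and the E-box, and to the strongest member next to a lipid gene. Each is written 5′ to 3′ in the direction of transcription. Capitals mark the E-box CACGTG, its weaker variant CACGCG and the letters ACTACA, each searched on both strands, so that CGCGTG and TGTAGT also stand in capitals. None of these matches overlapped another in the windows shown. ACTACA begins the element that the zinc-finger factor ZNF143 is known to bind, and it was added after the windows had been read.
LOC124904989, chr21:7142275-7142574, minus strand: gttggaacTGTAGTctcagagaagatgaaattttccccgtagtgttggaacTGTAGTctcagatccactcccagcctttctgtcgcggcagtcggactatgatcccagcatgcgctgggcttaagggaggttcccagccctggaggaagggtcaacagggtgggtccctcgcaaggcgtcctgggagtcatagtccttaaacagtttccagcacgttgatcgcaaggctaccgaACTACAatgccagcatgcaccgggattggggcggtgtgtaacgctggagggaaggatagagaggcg
LINC02987, chr19:27793645-27793944, plus strand: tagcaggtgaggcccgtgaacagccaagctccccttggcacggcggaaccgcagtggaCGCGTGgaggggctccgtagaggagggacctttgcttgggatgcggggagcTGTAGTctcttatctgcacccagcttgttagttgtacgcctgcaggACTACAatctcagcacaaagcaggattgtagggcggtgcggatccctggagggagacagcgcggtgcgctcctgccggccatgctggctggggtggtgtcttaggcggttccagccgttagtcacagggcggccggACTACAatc
LINC00662, chr19:27793891-27794190, minus strand: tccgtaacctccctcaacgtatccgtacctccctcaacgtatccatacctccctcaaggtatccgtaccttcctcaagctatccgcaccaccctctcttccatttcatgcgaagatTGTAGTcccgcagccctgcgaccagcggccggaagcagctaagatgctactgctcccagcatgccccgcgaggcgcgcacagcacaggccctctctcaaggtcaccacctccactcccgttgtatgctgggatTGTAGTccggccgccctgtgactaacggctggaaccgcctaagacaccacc
LOC101928764, chr13:21298042-21298341, minus strand: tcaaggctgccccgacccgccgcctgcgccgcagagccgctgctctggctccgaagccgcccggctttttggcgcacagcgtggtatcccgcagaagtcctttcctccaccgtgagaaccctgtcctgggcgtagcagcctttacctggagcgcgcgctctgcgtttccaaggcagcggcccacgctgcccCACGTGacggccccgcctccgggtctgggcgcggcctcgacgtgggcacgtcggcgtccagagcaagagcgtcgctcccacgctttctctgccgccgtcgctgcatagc
LOC124901783, chr7:155205454-155205753, plus strand: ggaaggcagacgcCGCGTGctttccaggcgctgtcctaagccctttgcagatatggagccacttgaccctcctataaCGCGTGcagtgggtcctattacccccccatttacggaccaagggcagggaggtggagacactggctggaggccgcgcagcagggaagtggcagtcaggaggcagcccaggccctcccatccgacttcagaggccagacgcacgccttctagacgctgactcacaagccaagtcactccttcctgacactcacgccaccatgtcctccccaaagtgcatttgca
LINC00513, chr7:130913214-130913513, plus strand: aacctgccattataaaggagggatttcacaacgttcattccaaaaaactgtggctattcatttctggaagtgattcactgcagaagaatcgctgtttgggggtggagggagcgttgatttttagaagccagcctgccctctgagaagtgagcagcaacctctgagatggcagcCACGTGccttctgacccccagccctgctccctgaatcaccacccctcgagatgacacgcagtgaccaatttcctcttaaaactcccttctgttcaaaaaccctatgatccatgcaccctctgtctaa
LOC124901072, chr5:135134112-135134411, plus strand: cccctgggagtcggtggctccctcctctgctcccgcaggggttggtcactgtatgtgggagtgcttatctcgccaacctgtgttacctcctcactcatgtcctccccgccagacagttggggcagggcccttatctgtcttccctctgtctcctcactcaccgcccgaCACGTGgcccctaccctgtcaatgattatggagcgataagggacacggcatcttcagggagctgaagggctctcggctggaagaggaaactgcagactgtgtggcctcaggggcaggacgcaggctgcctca

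The first window stands for 4 places. LOC124904989, LOC124904990, LOC124904991 and LOC124904992 are uncharacterised lncRNA genes on the short arm of chromosome 21, and their windows were identical over all 300 bases in each of the 6 pairs compared. A read from such a sequence cannot be assigned to one copy from its letters alone, and for reads with several matches the handling is not given in the sources used here. This window held ACTACA 3 times, at -242, -199 and -16 from the start, and neither form of the E-box. LINC02987 and LINC00662 are lncRNA genes that begin close together on opposite strands of chromosome 19. The LINC02987 window printed here held ACTACA 3 times, at -141, -95 and 42, beside 1 variant E-box at -192. The LINC00662 window held it 2 times, at -134 and -1. Of all 33725 windows, 8.48% held ACTACA and 0.869% held it at least 2 times. The 2 chromosome 19 windows overlap, and one match stands in both. These letters were chosen from the windows shown. The shares of all windows therefore do not measure how unusual the windows shown are, and the frequency of the letters at members is not given. A match is a description of letters, and no factor other than Myc was measured.

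The share of member starts with the E-box was near that of all windows. Of the 257 windows with a start within 1 kb of a member, 15 held CACGTG, or 5.84% (3.57 to 9.41), against 7.18% of all windows. The variant CACGCG stood in 24 of them, or 9.34% (6.36 to 13.5), against 11.4% of all windows. In the 3 printed windows where a member summit and CACGTG shared the window, the motif stood at -59 (LOC101928764), -77 (LINC00513) and -82 (LOC124901072). The summits stood at -226, -230 and -137 from the same starts. LOC124901783 held the variant 2 times, at -237 and -173, with its summit at -112. Only windows at annotated starts could be searched, so nothing can be said of motifs at the other members.

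Members were weaker and narrower than the peaks at coding genes. Their median fold was 3.68, with a range of 1.15 to 27.7 and the middle 80% between 2.57 and 6.95. The median was 3.82 for the 9901 other intergenic peaks, 3.88 for the 17666 peaks inside coding genes and 7.06 for the 10500 peaks within 1 kb of a coding gene end. A fold of 10 or more was reached by 146 members, or 3.24% (2.76 to 3.80, Wilson 95%), against 10.2% of all peaks on these chromosomes. The other intergenic peaks had 4.80%, and the peaks within 1 kb of a coding gene end had 26.3%. A width of 2 kb or more was reached by 176 members, or 3.91% (3.38 to 4.51), against 10.5% of all peaks. For the same 2 classes it was 5.01% and 24.9%. The median member was 581 bp wide with 26 fragments over its summit, close to the 576 bp and 26 of the other intergenic peaks. All members together covered 3.37 Mb. The control level was within 0.01 of its lowest value, 5.09, at 18.5% of the members, against 24.2% of all peaks, and its median was 6.14 against 5.89. The intervals of the members' shares did not reach the shares of all peaks in these 2 counts of fold and width, and no test was made, since the peaks of 1 list are not replicates.

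**Figure D1:**
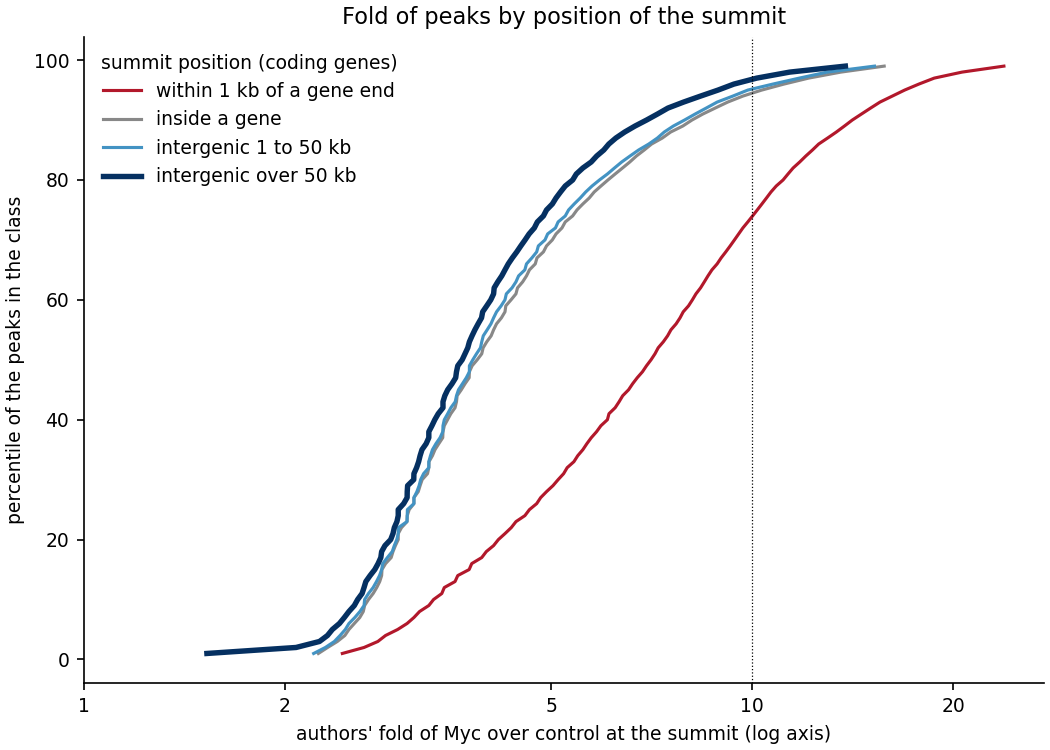
Percentiles (y axis) of the authors' fold at the summit (x axis, log scale) for 4 classes of peaks by position. Each line is 1 class, the dotted line marks a fold of 10, and the line of intergenic peaks over 50 kb from coding genes lies just left of the lines for peaks inside genes and for other intergenic peaks, with a longer tail below a fold of 2.

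The 50 kb limit itself marked no step in strength. The 275 members between 50 and 55 kb from a coding gene end had a median fold of 3.77, and the 297 peaks just outside the rule, between 45 and 50 kb, had 3.81. The median member lay 116 kb from the nearest coding gene end, the middle 50% lay between 73.6 and 215 kb, and the farthest lay 3.89 Mb away. Median fold was 3.75 for the 1920 members at 50 to 100 kb, 3.72 for 1347 at 100 to 200 kb, 3.70 for 907 at 200 to 500 kb and 3.02 for the 331 beyond 500 kb. The share with a fold of 10 or more went from 4.01% (3.22 to 4.98) in the nearest bin to 1.81% (0.833 to 3.90) in the farthest, and these 2 intervals overlap. The control level moved with the lower fold of the farthest bin. Of its 331 members, 82 had a control level over 20, and the other 249 had a median fold of 3.45.

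The strongest members had high pileups and wide peaks, and the high pileups follow from the choice by fold. The 20 with the highest fold ran from 17.5 to 27.7, with 106 to 276 fragments over the summit, control levels of 5.09 to 13.8 and widths of 1626 to 4235 bp. Of these 20, 13 had a lncRNA gene end within 1 kb, and 4 of the 13 also had a pseudogene end there. A further 5 lay inside a noncoding gene, and 2 had no lncRNA gene, pseudogene or small RNA gene within 1 kb. These 13 include the 4 identical chromosome 21 copies. Of the 146 members with a fold of 10 or more, 48 had a lncRNA gene end within 1 kb. Another 54, or 37.0%, had no lncRNA gene, pseudogene or small RNA gene there. The highest fold was 27.7 (23.7 to 32.2), at chr14:50000352-50002281, between ARF6, a small GTPase of membrane traffic, and VCPKMT, a lysine methyltransferase. Its summit lay inside the lncRNA gene LINC01588, 6397 bp from the nearest listed start, with 168 fragments over a control level of 5.09.

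**Figure D2:**
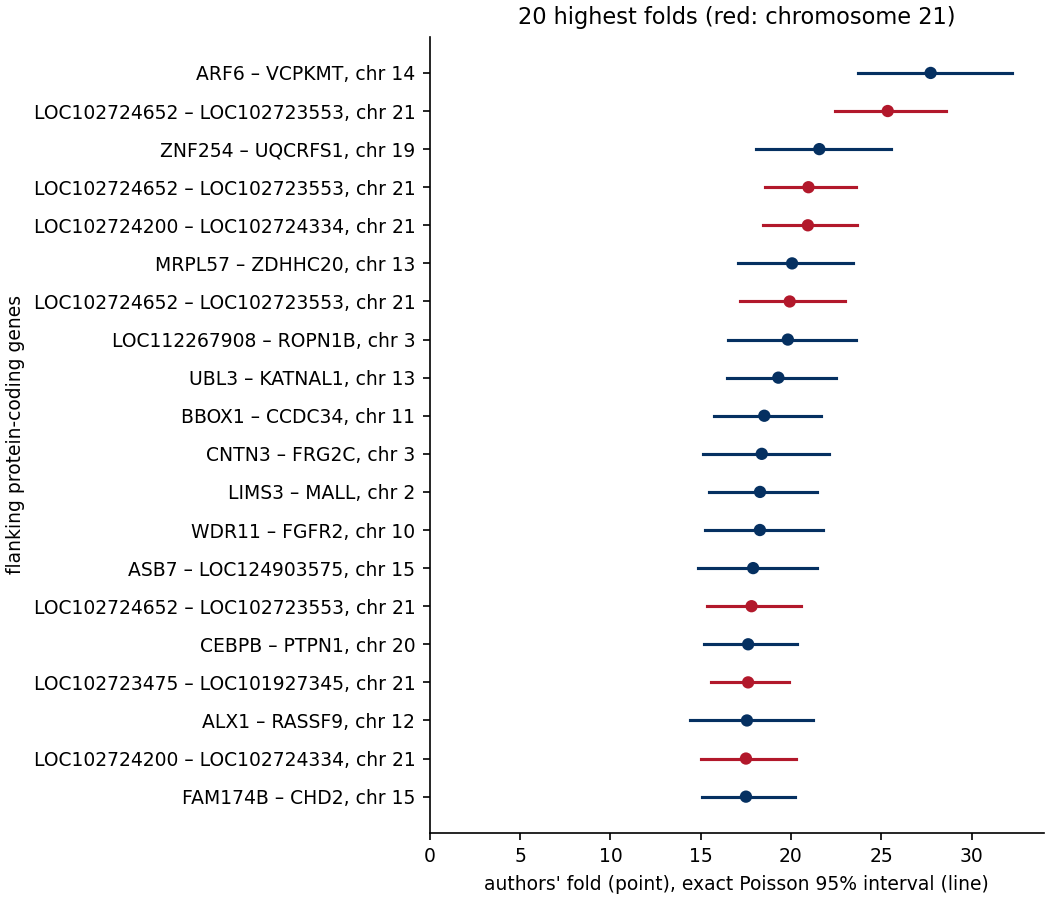
The authors' fold (x axis) of the 20 members with the highest fold, each named on the y axis by the protein-coding genes on its left and right and by its chromosome. Points are folds and lines are exact Poisson 95% intervals. The interval of the highest overlaps that of the next, and below these the other 18 intervals all overlap one another.

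Of these 20, 4 were the identical chromosome 21 copies shown above. Their folds were 25.4 (22.4 to 28.6) at LOC124904989, 20.97 (18.6 to 23.6) at LOC124904991, 20.9 (18.4 to 23.7) at LOC124904990 and 17.6 (15.6 to 19.9) at LOC124904992. Each had nearly the same pileup, 253 to 276 fragments. The copy with the highest fold had the lowest control level, 9.57, and the copy with the lowest fold had the highest, 13.8. The 4 summits stood 107 to 117 bp downstream of the starts, in peaks of 1665 to 1717 bp. A further 5 members on the same arm, picked out after their values were seen, were alike in another way, with widths of 3049 to 3464 bp, pileups of 174 to 186 and folds of 16.8 to 19.9. Of these 5, 2 lay 43.1 kb from a copy of the first kind. The copies of the first kind cannot be read as independent sites, and the sequence of the other 5 was not analysed here. The short arm below 12 Mb held 57 members with a median fold of 4.16, of which 11 reached a fold of 10. Without it, 135 of 4448 members did, or 3.04%.

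The strongest member off chromosomes 14 and 21 lay on chromosome 19, where LINC02987 and LINC00662 begin. The peak, chr19:27792643-27794739, had a fold of 21.6 (18.1 to 25.5), with 133 fragments over a control level of 5.21. Its summit, at position 27793619, stood 276 bp upstream of the LINC02987 start and 321 bp downstream of the LINC00662 start whose windows are printed above, and so lay outside both windows. It also stood 188 bp downstream of another LINC02987 start, whose window is not printed and did not reach the summit either. That window, of the start nearest to the summit, held a variant E-box, CACGCG, at -103, and neither CACGTG nor ACTACA. The nearest coding gene, UQCRFS1, a subunit of respiratory complex III, was 1412 kb away. No other of the 20 was as far from a coding gene.

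Several of the strongest members stood at the ends of pseudogenes annotated as transcribed. MIPEPP3, a copy of a mitochondrial peptidase gene, and the lncRNA gene LOC101928764 have ends within the peak chr13:21296916-21300170, which had a fold of 20.1 (17.1 to 23.4). Its summit fell in the printed window with the E-box. FAM86JP and FAM86DP, on chromosome 3, are copies of a gene of the FAM86 methyltransferase family, and the members at their ends had folds of 19.8 (16.5 to 23.6) and 18.4 (15.1 to 22.1). Another copy, FAM86EP on chromosome 4, had 14.3 (11.8 to 17.1). The member at LINC01123 and ZBTB45P1 on chromosome 2, a pseudogene not annotated as transcribed, had 18.3 (15.5 to 21.4).

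The rest of the 20 were spread over other chromosomes. PELATON, a lncRNA gene between CEBPB and PTPN1 on chromosome 20, had a member 90 bp from an end with a fold of 17.6 (15.2 to 20.4). LOC124902651 on chromosome 11, LOC107984537 on chromosome 12 and LOC124903558 on chromosome 15, all uncharacterised lncRNA genes, had members of 18.5, 17.6 and 17.5. Members inside noncoding genes but over 1 kb from their ends lay between UBL3 and KATNAL1 on chromosome 13 (19.3), between WDR11 and the growth factor receptor gene FGFR2 on chromosome 10 (18.3) and beside ASB7 on chromosome 15 (17.9). These members differed from one another by less than their counting intervals.

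Noncoding genes were common around the members. Of the 4505, 1535 lay inside a lncRNA gene, or 34.1% (32.7 to 35.5), against 15.6% of all peaks. The rule keeps coding genes away, so the space it leaves differs from the space of all peaks, and this was not corrected for. Of the members, 403 lay within 1 kb of a lncRNA gene end, or 8.95% (8.15 to 9.81), against 9.92% of all peaks, a share near that of the list. A pseudogene end lay within 1 kb of 130 members, or 2.89% (2.44 to 3.42), against 1.96% of all peaks. A small RNA gene lay within 1 kb of 51, or 1.13% (0.862 to 1.49), against 1.46% of all peaks. No lncRNA gene, pseudogene or small RNA gene lay within 1 kb of 2564 members, or 56.9%. For this class, ends of other noncoding gene types were not checked.

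Members at lncRNA starts had higher folds than the other members, as such peaks did in the whole list. A listed start lay within 1 kb of 242 members, whose median fold was 4.50, and 36 of them, or 14.9%, reached a fold of 10. The other members had a median of 3.63, and 2.58% of them reached 10. Over all peaks, the 2872 with a listed start within 1 kb had a median of 6.82 and 25.3% reached 10, against 4.14 and 9.15% of the rest. Within 250 bp of a start stood 125 members with a median of 4.60. By position, 79 summits fell in the first 250 bp downstream of the nearest listed start, against 46 in the 250 bp upstream and 8 to 20 in each bin beyond 750 bp on either side. The median fold was 5.25 in the first downstream bin and 7.29 in the next, which held 21. Of the 3461 lncRNA genes with a listed start over 50 kb from coding genes, 241 had a member within 1 kb of it, or 6.96% (6.16 to 7.86).

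**Figure D3:**
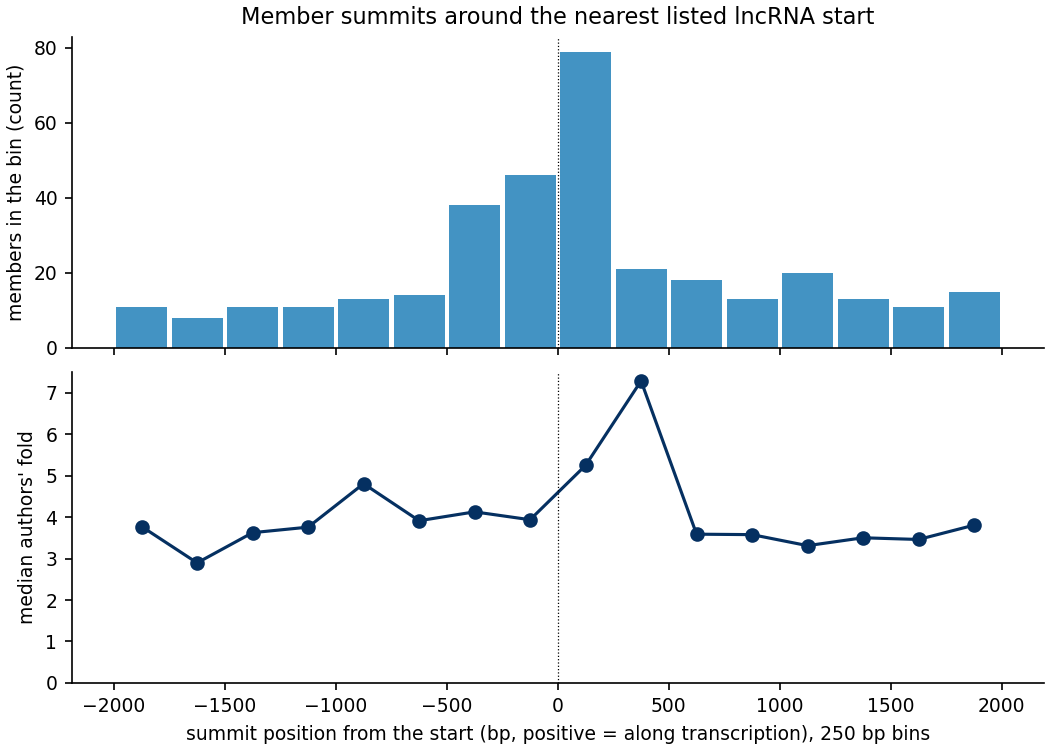
Member summits around the nearest listed lncRNA start, in bins of 250 bp (x axis, positive along transcription). The upper panel gives the count per bin, highest with 79 just downstream of the start, and the lower panel gives the median authors' fold per bin, highest at 7.29 between 250 and 500 bp downstream.

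The start windows that hold a member summit were richer in G and C than other windows far from coding genes. There were 60 such windows of lncRNA genes, with a median GC content of 54.5%, against 43.7% for 3886 lncRNA windows over 50 kb from coding genes with no peak summit. The 2357 windows of coding genes with a summit had 66.0%. Within the 60, the 21 windows with at least 60% GC had a median member fold of 6.69 and the other 39 had 3.91. The letters TGANTCA stood in 13 of the 60, or 21.7% (13.1 to 33.6). They stood in 13.1% (12.05 to 14.2) of the windows without a summit and 7.67% of all windows. These letters include the AP-1 sites TGACTCA and TGAGTCA, bound by JUN and FOS dimers, but also TGAATCA and TGATTCA. Their share is therefore no count of AP-1 sites. The GC box CCGCCC, bound by SP and KLF factors, stood in 16, or 26.7% (17.1 to 39.0), against 9.68% (8.79 to 10.6) of the windows without a summit and 45.04% of all windows. The groups differ in GC content, so these shares cannot be told apart from base composition.

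Among named lncRNA genes, a list of 41 with known roles in cancer or development was followed, chosen with earlier results of these data known. Of the 39 on these chromosomes, 8 had a member at an end. Of all 16908 lncRNA genes on these chromosomes, at any distance from coding genes, 394 did. As the list was chosen with earlier results known, these counts were not tested against each other. Within the list, LINC00662 stood highest, as given above. DLEU2, the host of the miR-15a and miR-16-1 tumour suppressors, had a fold of 11.9 (9.54 to 14.7) 646 bp from its start, and DLEU1 beside it had 14.5 (12.5 to 16.8) 189 bp from its own. MIR31HG, the host gene of miR-31, had 8.98 (6.80 to 11.6). LINC00673, between SOX9 and SLC39A11 on chromosome 17, had 8.21 (6.11 to 10.8) 206 bp downstream of a start. CYTOR, named as a cytoskeleton regulator, had 7.90 (6.00 to 10.2) 197 bp downstream.

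MIR4435-2HG, LINC00460 and MIR181A1HG had folds of 6.32 (4.79 to 8.19), 6.29 (4.88 to 7.99) and 5.79 (4.400 to 7.49). These 3 and those of LINC00673 and CYTOR had intervals that all overlap. CASC15, a lncRNA gene of the SOX4 region, had members inside it and none at an end, with a highest fold of 4.10. Over all lncRNA and miRNA genes, 404 had a member within 1 kb of an end and 54 of them had a fold of 10 or more.

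Small RNA genes near members fell into families. The small nuclear RNAs (snRNAs) of the spliceosome led, with 12 members at 11 genes, a median fold of 8.15 and a range of 4.70 to 15.4. Of these, 4 stood in an array on chromosome 17, with LOC124904144 at 15.4 (14.04 to 16.9), LOC124904142 at 13.9 (12.7 to 15.2) and LOC124904143 at 10.2 (9.12 to 11.4). The array had 323 to 472 fragments at these 3 summits, over control levels of 28.2 to 33.1, far above the lowest level of 5.09. On chromosome 1, members stood near the U1 and variant U1 genes, from RNVU1-18 at 8.63 (6.62 to 11.1) to RNVU1-3 at 4.70 (3.33 to 6.45). RNU1-4 had 7.004 (6.02 to 8.11) over a control level of 24.6. Such genes belong to families of near-identical copies, so the share of each copy in the signal is uncertain.

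Peaks at the other small RNA classes had lower medians. The 24 members within 1 kb of 21 tRNA genes had a median fold of 3.57, close to the 3.68 of all members, with a highest value of 13.7 (11.5 to 16.2) at TRT-TGT2-1 and 10.8 (8.50 to 13.6) at TRI-TAT2-2. For miRNA genes, 12 members at 10 genes had a median of 3.35. MIR5087 had 10.1 (7.78 to 12.9), MIR6076 had 9.62 (7.36 to 12.4) and MIR6080 had 7.98 (6.03 to 10.4), and the other 9 had 5.91 or less. The 3 members at small nucleolar RNA genes had 3.69 to 4.43.

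Pseudogenes formed another group, though not all of them are copies of coding genes. Of the pseudogenes with a member at an end, 63 are annotated as transcribed, with a median fold of 5.99, and 56 are not, with 4.52. A fold of 10 or more was found at 10 and 5 of them. The 5 include RNVU1-21, of the variant U1 family, with 10.1 (7.78 to 12.9) at the member given above for MIR5087. Beyond those named above, CCT6P1, a copy of a chaperonin subunit gene, had 15.8 (13.2 to 18.8), SMG1P3 had 15.1 (12.9 to 17.7), GUSBP2, a copy of the beta-glucuronidase gene, had 14.6 (11.7 to 17.96) and RRN3P3, a copy of an RNA polymerase I factor gene, had 13.9 (11.6 to 16.5). Such copies can share reads with their parent genes, and the counting of those reads is not given in the sources used here.

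Many members came in groups. Joined where neighbouring summits were at most 10 kb apart, the 4505 members made 3180 units, of which 2438 were single. There were 276 clusters of 3 or more, with 1135 members, or 25.2%. Their median fold was 3.91, against 3.60 for the single members, and 4.14% against 2.75% reached a fold of 10. Clustered members thus had only slightly higher folds.

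The cluster around the start of MIR31HG on chromosome 9, between the interferon gene IFNE and MTAP, an enzyme of methionine salvage, had 17 members over 37.6 kb, a number that no other cluster exceeded. There the folds were 2.91 to 8.98 and control levels no higher than 6.88. Next came one with 16 members over 51.1 kb, between KLF14 and MKLN1 on chromosome 7, which takes in the miR-29 genes MIR29A and MIR29B1, LINC-PINT and LINC00513, whose E-box window is printed above. Its folds were 2.80 to 8.56. At LINC00513 the fold was 8.09 (6.31 to 10.2).

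The next 3 clusters, with 13, 12 and 12 members, lay side by side between CEBPB and PTPN1 on chromosome 20. Their highest folds were 6.75, 10.4 and 11.96, the last of them in the cluster with LINC01270 and one end of the lncRNA gene PELATON. The member of fold 17.6 at the other end of PELATON lay outside these clusters. A cluster of 11 between SOX1 and SPACA7 on chromosome 13 held the widest member of all, 8921 bp with a fold of 10.4 (8.54 to 12.5). Another 11 stood between RASSF10 and the clock gene BMAL1 on chromosome 11, with folds of 2.65 to 8.80. A cluster of 10 lay inside LINC00673 between SOX9 and SLC39A11 on chromosome 17, with folds of 3.12 to 7.55.

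Width picked out some of the same places. The 5 widest members were 2 of the SOX1 to SPACA7 cluster (8921 and 5481 bp), 1 at the chromosome 17 snRNA genes (7172 bp), 1 between IFNE and MTAP (5903 bp, fold 4.97) and 1 inside the lncRNA gene LNCATV between IRF2BP2 and TOMM20 on chromosome 1 (5645 bp, fold 15.9).

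Whole gene-free stretches also differed in what they held. Of 2526 stretches over 100 kb between neighbouring coding genes, 1146 had at least 1 member. The 318 kb between CEBPB, a transcription factor of inflammation and fat cell formation, and PTPN1, a phosphatase of insulin and leptin signalling, held 47, the most of any. That is 216 per Mb of eligible sequence, against 4.32 per Mb over all chromosomes used, long stretches with hardly any member included. Their folds ran from 2.34 to 17.6 with a median of 4.24, and the median control level was 6.88. Next came KLF6 to AKR1E2 on chromosome 10 with 38 members (highest fold 13.7), KLF5 to KLF12 on chromosome 13 with 35 (9.12), TBL1XR1 to KCNMB2 on chromosome 3 with 31 (11.5) and IGFBP3 to TNS3 on chromosome 7 with 31 (9.14). The 10 stretches with the most members held 318 members, or 7.06% of all.

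**Figure D4:**
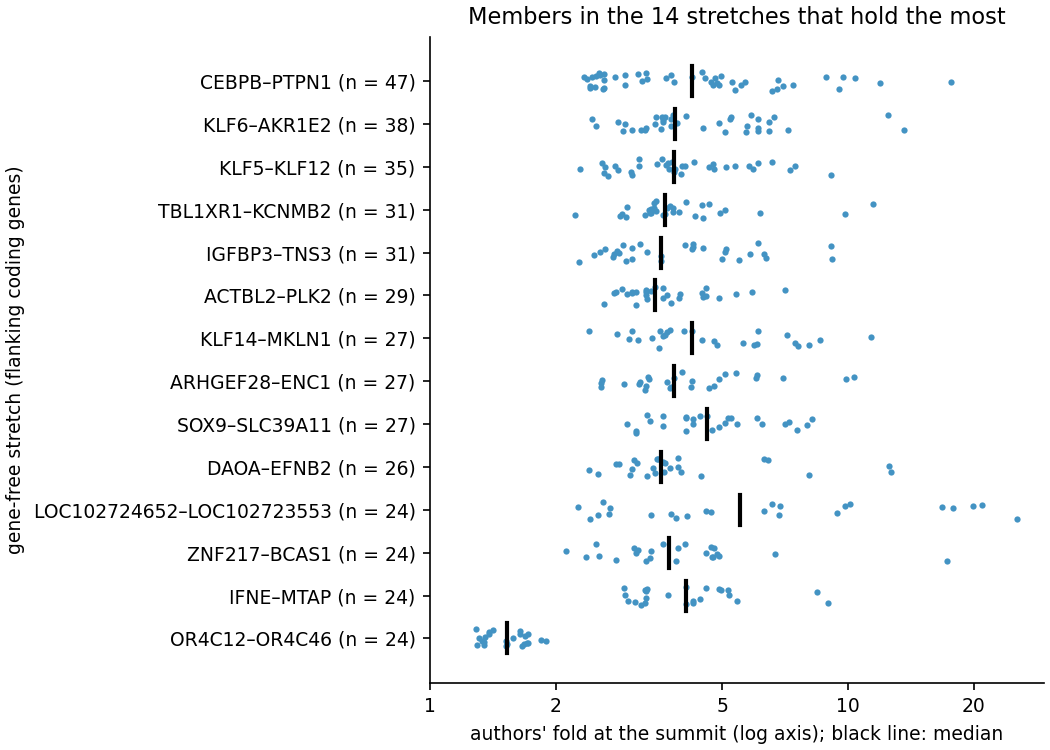
The authors' fold (x axis, log scale) of each member in the 14 gene-free stretches that hold the most members, named on the y axis by their flanking coding genes. Points are members, spread vertically for clarity, and black lines are medians. Most medians lie between 3.45 and 5.50, and the OR4C12 to OR4C46 stretch lies apart at 1.52.

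The coding genes that were nearest to the most members followed from these stretches. TBL1XR1, a corepressor subunit that also takes part in WNT signalling, was nearest to 31, PTPN1 and the zinc transporter SLC39A11 to 25 each, the transcription factors KLF6 to 23 and CEBPB and KLF5 to 22 each. NR2F2, a nuclear receptor, IGFBP3, an insulin-like growth factor binding protein, IFNE and the kinase PLK2 were nearest to 19 each. The 25 members of SLC39A11 lay 53.4 to 258 kb away, in the stretch it shares with SOX9, a transcription factor of intestinal crypts, which was nearest to 4. Nearness is no evidence of control, and no expression was measured. In all, 1494 of 18411 coding genes, or 8.11%, were the nearest gene of a member.

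Gene lists were counted in the same way, with no test and no correction for the gene-free sequence around their genes. The share of all coding genes to set beside each list is 8.11%. Of 29 transcription factors of the intestine and endoderm, 14, or 48.3%, were nearest to a member, with 115 members of median fold 3.77. KLF6 had 23, KLF5 had 22, ID2, an inhibitor of bHLH factors, had 16 and ETS2 had 12. The strongest was 496 kb from KLF6 with 13.7 (11.3 to 16.4), and ETS2 had one of 12.5 (9.85 to 15.6). Of 25 genes of the EGFR and ERK pathway, 14, or 56.0%, were nearest to 66 members of median fold 3.39. Feedback inhibitors of the pathway led, with SPRY2 at 17 members (highest fold 4.63), SPRY1 at 12 (9.43), SPRED2, SPRY4 and the phosphatase DUSP6 at 6 each and DUSP5 at 5 (9.52). PHLDA1, a gene induced by growth factors, also had 6. The 17 members of SPRY2 ran from 2.46 to 4.63, none of them strong.

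Of 34 genes of the WNT, BMP and TGF-beta pathways, 11, or 32.4%, were nearest to 39 members with a median of 3.77. None of the 39 reached a fold of 10, which for so few is near the 3.24% of all members. SMAD6, an inhibitor of BMP signalling, had 9 (highest 7.11), the ligand BMP2 had 8 (highest 9.75), and TGFB2 and BMP4 had 6 each. Of 18 AP-1 and immediate early genes, 3, or 16.7%, had members. JUN had 14, with folds of 2.41 to 10.2, the highest 120 kb away, and EGR2 had 1. As a contrast, 21 of 51 neuronal adhesion and synapse genes, or 41.2%, were nearest to 41 members with a median of 3.56, led by SLITRK6 with 8. Many such genes stand alone in gene-poor regions, and the length of gene-free sequence around the genes of a list was not corrected for.

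Of 44 lipid genes on these chromosomes, 3 were nearest to 10 members. That is 6.82% of the list, near the 8.11% of all coding genes. INSIG2 and INSIG1, which hold the sterol regulator SCAP in the endoplasmic reticulum, had 5 and 3, and LIPG, an endothelial lipase, had 2. The strongest was the member at LOC124901783, 92.3 kb from INSIG1, with 12.4 (10.1 to 15.2), 97 fragments over a control level of 6.88 and the window with 2 variant E-boxes printed above. The other INSIG1 members had 7.04 and 2.67. The INSIG2 members had folds of 2.95, 2.95, 3.43, 5.42 and 7.39.

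Members were not evenly spread over the chromosomes. Per Mb of sequence that meets the distance rule, chromosome 20 had 9.42, chromosome 7 had 6.31, chromosome 11 had 5.93, chromosome 17 had 5.85 and chromosome 13 had 5.74, against 4.32 overall. The lowest were chromosome 22 with 1.04, chromosome 14 with 1.66 and chromosome 16 with 1.81. On each of these 3, a single long stretch with hardly any member made up much of the eligible sequence. It was 15.1 of 22.2 Mb with 2 members on chromosome 22 and 18.4 of 49.9 Mb with 1 on chromosome 14. On chromosome 16 it was 12.1 of 34.3 Mb with 2. The stretches on chromosomes 22 and 14 start at positions 278487 and 69632, beside GSTT1 and LOC124905466. Whether these listed gene positions belong to the main chromosome sequences was not checked, and the eligible lengths depend on it. Stretches with so few members also lay on other chromosomes. They made up 18.9 of 65.1 Mb with 2 members on chromosome 13 and 15.7 of 40.3 Mb with 2 on chromosome 15. On chromosome 9 it was 17.9 of 62.6 Mb with 1. None of them was taken out of the length, so the low and high densities, their order and the 4.32 depend on them. Control levels did not follow these densities on every chromosome. The share of members at the lowest control level was 4.39% on chromosome 20, 6.29% on chromosome 7 and 6.20% on chromosome 11. It was 0.802% on chromosome 13, but 36.9% on chromosome 17. Among the chromosomes of lowest density it was 58.6% on chromosome 14, 31.25% on chromosome 16 and 17.4% on chromosome 22. Chromosome 22 also had the highest median control level of its members, 7.86. The part of the control level in these densities was not tested. Chromosome 13 was also the one with the largest share of its peaks among the members, 374 of 1565 or 23.9%, and chromosome 19 the one with the smallest, 16 of 2333 or 0.686%.

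A last group of members stood on very high control signal. A control level over 20 was found at 106 members, or 2.35%, against 0.411% of all peaks, so 106 of the 175 such peaks in the list were members. Of the 106, 81 had a fold under 2, and the median was 1.64. Most lay in long stretches that span a centromere. Between OR4C12 and OR4C46 on chromosome 11 there were 24, with control levels of 46.8 to 276 and folds of 1.29 to 1.89. Between ANKRD30B and ROCK1 on chromosome 18 there were 20, with control levels of 21.6 to 612 and folds of 1.21 to 2.30. The 7 between ZNF337 and LOC124904970 on chromosome 20 included the lowest fold of all members, 1.15.

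**Figure D5:**
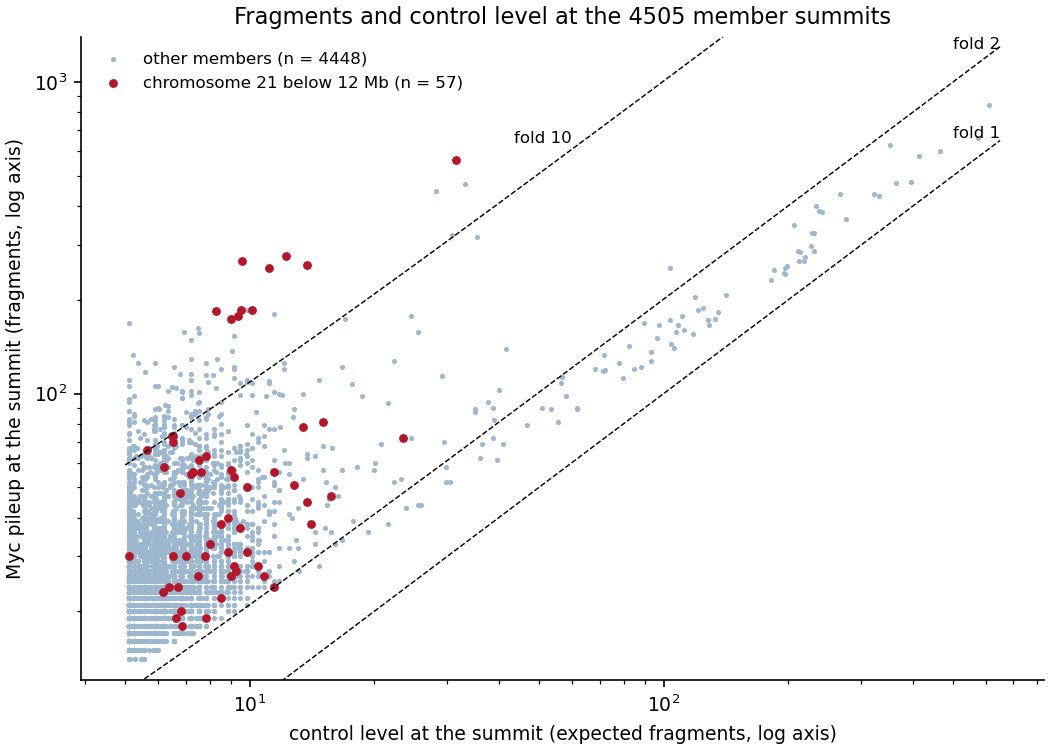
The Myc pileup at each member summit (y axis, fragments, log scale) against the control level (x axis, log scale). Each point is 1 member, with the 57 on chromosome 21 below 12 Mb in red; dashed lines mark folds of 1, 2 and 10. Points over a control level of 50 lie near or under a fold of 2, while the red points of highest pileup lie above a fold of 10.

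Of the 5 farthest members, 4 belonged to this group. The 5 members farthest from a coding gene lay on chromosomes 16 and 1, 2733 to 3886 kb away, with folds of 1.53 to 3.00 in peaks of 233 to 318 bp. Among members with a control level over 20, 4 reached a fold of 10, and 3 of these were the chromosome 17 snRNA members named above. The other was on the short arm of chromosome 21, with 561 fragments over a control level of 31.4 and a fold of 17.3 (15.9 to 18.8). Without the 106, the median fold of the members was 3.72 and 3.23% reached a fold of 10, values close to those with them.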

How the data were processed

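Per the labels, the series holds 3 Myc, 3 IgG and 1 input CUT&RUN library of HT29 cells. The submitters' processing notes name build hg38, the aligner BWA 0.7.15, the peak caller MACS2 2.1.2 and, besides these, SAMtools 1.5 and Picard 2.19.0. The deposited narrowPeak list gives, for each peak, the authors' fold (a ratio of Myc to control at the summit), the −log10 p-value, the −log10 q-value and an integer score, which was not used. The control library, the joining of replicates and the handling of duplicates and of reads with several matches are not given in the sources at hand. The list ends at a q of 0.0499.

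Pileups were solved from fold and −log10 p, with 1 added to pileup and control level as MACS2 does, and they were whole numbers within a tolerance of 0.001 in −log10 p for every peak. On simulated data 100% of 2000 pileups were recovered. Genes came from a RefSeq table of GRCh38.p14, which shares its chromosome sequences with hg38; positions count from 1. Strand and sequence came from RefSeq promoter windows of 300 bases. Clusters join summits at most 10 kb apart. Shares carry Wilson 95% intervals. No test was made, since peaks of 1 list are not replicates and share its libraries.

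The members, gene lists and motifs were chosen with earlier results of these data known. Named were the 20 highest folds, the 10 largest clusters, the 5 widest and 5 farthest members, the 10 coding genes nearest to most members, up to 4 genes per list and the 15 noncoding genes of highest fold with a member at an end, beside the followed lncRNA list. Members and genes beyond these, such as FAM86EP, DUSP5, DUSP6, SPRY4, the small RNA genes and the further pseudogenes, were chosen after their values were seen. Some clusters and genes that these rules name are not reported here. Chromosomes 8, X and Y were not analysed here. Python 3.11.15, pandas 2.3.3, numpy 2.4.6 and scipy 1.17.1 were used.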

Additional observations from a re-analysis of the deposited data

How the results depend on the processing

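No paired analysis was possible because the list holds no value per library, and no result comes from a test. The count of members follows the rule. It was 6872 with a limit of 25 kb, 2585 with 100 kb, 2825 at a −log10 q of at least 5, 627 outside and over 50 kb from genes of every type and 833 with only control levels within 0.01 of the lowest. For these 5 alternatives in order, the median fold was 3.74, 3.61, 4.49, 3.25 and 3.77, and the share with a fold of 10 or more was 3.52%, 2.67%, 5.17%, 1.28% and 2.52%. The share at least 2 kb wide was 4.05%, 2.98%, 6.23%, 0.957% and 2.04%. These shares stayed below those of all peaks at the same setting where that was computed, which were 14.4% and 14.7% at the stricter q and 9.11% and 6.69% at the lowest control level. The share inside a lncRNA gene was 31.6% with 25 kb and 38.9% at the lowest control level, and it is 0 by construction with genes of every type, so it is not given. The share near a lncRNA end was 6.28% within 500 bp and 13.6% within 2 kb (all peaks 7.19% and 13.9%). Clusters of at least 3 numbered 158 with summits at most 5 kb apart. In all, 30 of 52 alternative values stayed within their limits. Leaving out chromosome 21 below 12 Mb, or control levels over 20, was chosen after the data were seen and moved no value past its limits. The planned motif search around all summits, with its 3 window sizes, was not run, since no genome sequence was used here. At the lowest pileup in the list, 14 fragments, small differences in fold cannot be told from counting error.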
